A study of Mus musculus with 4 samples.

Results

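Prdx1, Mmachc, Ccdc163, Tesk2, Toe1, Mutyh and Hpdl are 7 protein-coding genes that follow each other along mouse chromosome 4. They were chosen by position around Mmachc, with earlier results of these data known, and make up 7 of the 54532 gene identifiers counted. All 7 were found in every library, and all 7 were kept by the filter on low counts. RNA had been sequenced in 4 libraries of C3H10T1/2, a mouse line of mesenchymal stem cells, each from about the same number of cells, per the labels' protocols. The PRDX1MT library came from cells with a CRISPR edit at the splice acceptor of Prdx1 intron 5, with a genotype label of Prdx1 knockout and a library name that points to a single clone. The DKO libraries came from clones 1 and 5 of a double knockout of DNMT3A and DNMT3B, the enzymes that place new DNA methylation. The WT library came from unedited cells, and the labels name no other allele or treatment in any of the 4 libraries. Whether the Prdx1 edit is present in the DKO clones is not stated in the labels. Nor do they say that the clones were grown as separate cultures, so a p-value measures only the spread between these libraries. The question given for the series is how Mmachc becomes silenced when transcription runs on from a neighbouring gene.

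Prdx1 encodes an abundant enzyme that reduces peroxides, and Mmachc encodes the protein that trims incoming cobalamin (vitamin B12) so that cells can make its active forms. In people, splice-site variants of PRDX1 have been described in which transcription continues past the gene and crosses MMACHC in the antisense direction, together with methylation of the MMACHC promoter and loss of its expression. The mouse genes lie in the same arrangement. Prdx1 and Ccdc163 run on the plus strand with Mmachc on the minus strand between them, so transcription past the end of Prdx1 would meet Mmachc tail first and Ccdc163 head first. Tesk2 and Mutyh follow on the plus strand, and Toe1 and Hpdl on the minus strand.

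Positions are from GENCODE M21 on GRCm38 (mm10). Prdx1 (ENSMUSG00000028691) spans chr4:116685544-116700822 on the plus strand, and 1456 bases separate its end from that of Mmachc (ENSMUSG00000028690, chr4:116702279-116708406, minus strand). Ccdc163 (ENSMUSG00000028689, chr4:116708509-116751206, plus strand) starts 102 bases beyond the start of Mmachc, head to head with it. Tesk2 (ENSMUSG00000033985, chr4:116720948-116805956, plus strand) begins inside the span of Ccdc163, and the pair shares 405 exon bases on the same strand. Toe1 (ENSMUSG00000028688, chr4:116794310-116807640, minus strand) overlaps the end of Tesk2 by 1212 exon bases on the opposite strand, which is 40.7% of the exon bases of Toe1. Mutyh (ENSMUSG00000028687, chr4:116807723-116819440, plus strand) starts 82 bases from the start of Toe1, and Hpdl (ENSMUSG00000043155, chr4:116819904-116821707, minus strand) ends 463 bases past the end of Mutyh.

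**Figure D1:**
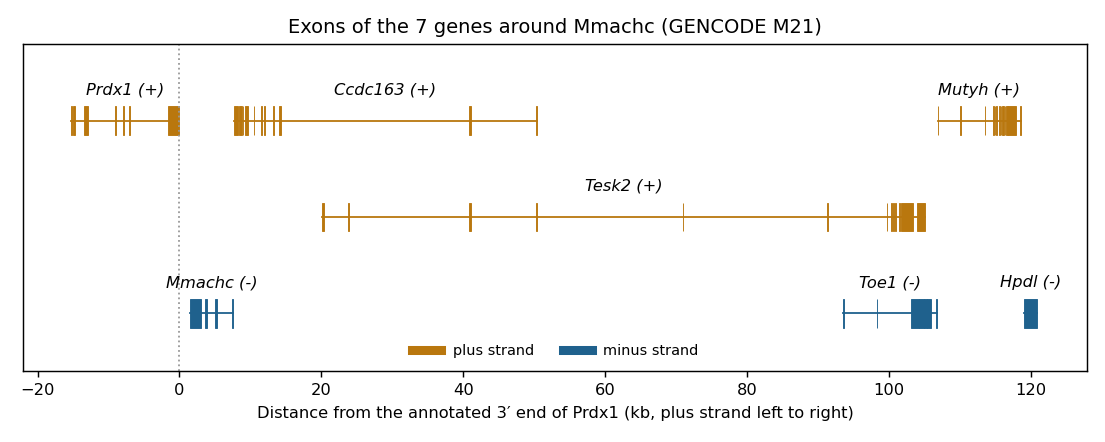
Map of the 7 genes, with exons as bars (drawn with a thin outline) on 3 rows against the distance in kb from the annotated 3′ end of Prdx1, plus strand in orange and minus strand in blue. Mmachc lies directly beyond Prdx1 and points back at it, Ccdc163 points away from the start of Mmachc, and Tesk2 overlaps both Ccdc163 and Toe1.

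The edited intron 5 of Prdx1 is 5323 bases long, chr4:116693848-116699170. It is followed by the last exon, exon 6 (1652 bases), which holds 54.3% of the exon bases of the gene and 83 of its 597 coding bases. The join of exons 5 and 6 that depends on the edited acceptor is shown first, with exon 6 in capitals, as coding sequence of transcript Prdx1-204 in GENCODE. The stretches between the head-to-head gene pairs Mmachc-Ccdc163 and Toe1-Mutyh are shown after it, since the annotated starts of both genes lie at their edges. Both are from RefSeq (GRCm38.p6), plus strand, with CpG dinucleotides in capitals, and cover chr4:116708386-116708508, whose first 21 bases lie within the GENCODE exon of Mmachc, and chr4:116807641-116807722.
Prdx1 exon 5 to exon 6: cactgacaaacatggtgaagTGTGTCCAGC
Mmachc-Ccdc163: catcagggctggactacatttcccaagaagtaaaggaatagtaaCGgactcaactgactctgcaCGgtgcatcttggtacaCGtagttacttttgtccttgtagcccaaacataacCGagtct
Toe1-Mutyh: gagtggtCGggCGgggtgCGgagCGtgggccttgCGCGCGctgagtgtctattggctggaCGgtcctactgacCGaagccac

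The Mmachc-Ccdc163 stretch held 4 CpG in 123 bases at 45.5% GC, and the Toe1-Mutyh stretch 9 CpG in 82 bases at 68.3% GC. All 7 genes had a RefSeq promoter window of 300 bases. It held 19 CpG for Prdx1, 15 for Mmachc, 16 for Ccdc163, 16 for Tesk2 and 15 for Hpdl. For Toe1 it held 32, and for Mutyh 31 at the first of its 2 listed starts and 2 at the second. The median over all windows was 7. As many CpG were held by 28.1% to 34.6% of all windows for Prdx1, Mmachc, Ccdc163, Tesk2 and Hpdl. For Toe1 and the first start of Mutyh the shares were 9.52% and 10.6%. The windows of Mmachc and Ccdc163 cover mostly the same bases.

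The 4 libraries held 27570136 counts (PRDX1MT), 34901511 (DKO clone 1), 27789693 (DKO clone 5) and 37685798 (WT). Levels are CPM, counts set against library sizes scaled by TMM, and their ranges are 95% exact Poisson intervals that cover counting error only. Of 12 mesenchymal markers, 10 were above 1 CPM in all 4 libraries at once. Nt5e was under 1 CPM throughout, and Thy1 was at 0.884 CPM in PRDX1MT and at 0.757 and 1.38 CPM in DKO clones 1 and 5, against 29.0 CPM in WT. Summed blood, endothelial and epithelial markers reached at most 4.37, 0.402 and 1.77 CPM, with Epcam at 0. The noncoding RNA Gm26917 alone took 22.3% of counts in PRDX1MT, 5.36% and 12.2% in DKO clones 1 and 5, and 10.5% in WT. With it and the small and mitochondrial RNA genes removed before scaling, the log2 ratios to WT in PRDX1MT were -3.68 for Prdx1 and 2.91 for Ccdc163, and no size rule call of the 7 genes against WT changed. Of the genes targeted in the DKO clones, Dnmt3a was at 31.3 and 25.9 CPM in clones 1 and 5 and 80.9 CPM in PRDX1MT, against 43.7 CPM in WT. Dnmt3b was at 2.83 and 2.03 CPM in clones 1 and 5 and 3.74 CPM in PRDX1MT, against 3.28 CPM in WT.

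PRDX1MT set against WT shows what accompanied the splice acceptor edit, in 1 library of each. Prdx1 was far lower, Ccdc163, Tesk2 and Hpdl were higher by more than 2-fold, and Mmachc, from reads of unknown strand, was not lower. Neither library has a replicate, and a gene was counted as different by a size rule. The rule asked for a log2 ratio of at least 1 in size, at least 100 reads in both libraries together, and a 95% binomial interval of the ratio that excludes 0. By this rule 4 of the 7 genes differed, 3 higher and 1 lower. Of all 12693 genes with 100 reads, 14.8% did so, 7.25% higher and 7.57% lower. The median log2 ratio was 0.67 over the 7 genes and -0.04 over all genes. An edgeR contrast that borrows its spread from the DKO clones, added after the data were seen, called 0 of the 7 genes and 0% of all 19446. In it 2 of the 7 were under an unadjusted p of 0.05, Prdx1 (adjusted p = 0.494, edgeR) and Ccdc163 (adjusted p = 1.0, edgeR), as were 4.12% of all genes.

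Prdx1, the edited gene, had 775 reads in PRDX1MT, 13987 and 9136 in DKO clones 1 and 5, and 16428 in WT. These were 31.2 CPM in PRDX1MT (29.0 to 33.4), 392 CPM in DKO clone 1 (386 to 399), 332 CPM in DKO clone 5 (325 to 339) and 399 CPM in WT (393 to 405). PRDX1MT stood far below the other 3 libraries, and the intervals of DKO clone 1 and WT overlapped. The level in PRDX1MT was 12.8-fold lower than in WT (11.9 to 13.8; log2 ratio -3.68), and 0.685% of all genes had a ratio as low. Reads per exon are not in the counts, so how the remaining 775 reads fall before and after the edited acceptor is not known. In these bulk samples, fewer cells with a transcript and less of it per cell cannot be told apart.

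Mmachc had 419 reads in PRDX1MT, 215 and 372 in DKO clones 1 and 5, and 455 in WT. As levels these were 16.8 CPM in PRDX1MT (15.3 to 18.5), 6.03 CPM in DKO clone 1 (5.25 to 6.89), 13.5 CPM in DKO clone 5 (12.2 to 15.0) and 11.1 CPM in WT (10.1 to 12.1). PRDX1MT was the highest of the 4 libraries and DKO clone 1 the lowest, with no overlap of counting intervals between neighbours in that order. The ratio of PRDX1MT to WT was 1.52-fold (1.33 to 1.74; log2 ratio 0.60), under the size rule, and 15.3% of all genes had a ratio as high. The strand of these reads is not known: the library kit keeps strand, but the setting used in counting is not given in the sources used here. Of 492 genes lying wholly under exons of the other strand, 489 (99.4%) had 0 reads, against 47.0% of 41966 genes without such overlap. Exon bases under exons of the other strand thus appear to have taken few or no counts, as when strand is not used. Sense and antisense RNA over Mmachc therefore cannot be told apart.

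Ccdc163, a coiled-coil protein gene, was the member with the largest higher ratio. It had 1115 reads in PRDX1MT, 99 and 218 in DKO clones 1 and 5, and 243 in WT. Its level was 44.8 CPM in PRDX1MT (42.2 to 47.5), 2.78 CPM in DKO clone 1 (2.26 to 3.38), 7.92 CPM in DKO clone 5 (6.90 to 9.04) and 5.91 CPM in WT (5.19 to 6.70). PRDX1MT was high and the other 3 were low, and no 2 intervals overlapped. The level in PRDX1MT was 7.59-fold that in WT (6.60 to 8.76; log2 ratio 2.91), and 0.315% of all genes had a ratio as high.

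Tesk2 encodes a kinase related to the LIM kinases that act on the actin cytoskeleton. It had 786 reads in PRDX1MT, 380 and 441 in DKO clones 1 and 5, and 540 in WT. This was 31.6 CPM in PRDX1MT (29.4 to 33.9), 10.7 CPM in DKO clone 1 (9.61 to 11.8), 16.0 CPM in DKO clone 5 (14.6 to 17.6) and 13.1 CPM in WT (12.0 to 14.3). PRDX1MT was above the other 3 libraries, which lay close together without overlap. The ratio of PRDX1MT to WT was 2.41-fold (2.16 to 2.69; log2 ratio 1.26), and 4.34% of all genes had a ratio as high. With library sizes left as total counts, which lowers the median of all genes by 0.28, the log2 ratio of Tesk2 was 0.99, just under the rule. In all, 37.9% of the exon bases of Tesk2 lie under exons of Ccdc163 or Toe1, and how reads there were assigned is not given in the sources used here.

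**Figure D2:**
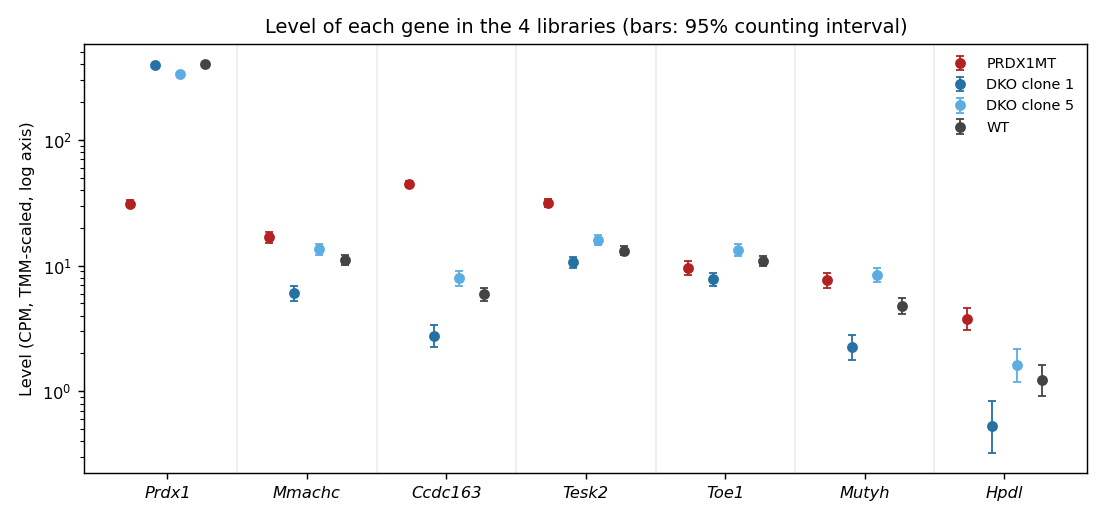
Level of each gene in CPM (log axis) in PRDX1MT, DKO clone 1, DKO clone 5 and WT, with points for single libraries and bars for the 95% counting interval. PRDX1MT is lowest for Prdx1 at 31.2 CPM and highest for Mmachc, Ccdc163, Tesk2 and Hpdl, and DKO clone 1 is lowest for the 6 genes other than Prdx1.

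The 3 genes at the far end of the row differed among themselves in PRDX1MT against WT. Toe1 encodes a deadenylase that trims the ends of small nuclear RNAs. Its level was 9.65 CPM in PRDX1MT (8.47 to 10.9), 7.80 CPM in DKO clone 1 (6.91 to 8.77), 13.3 CPM in DKO clone 5 (12.0 to 14.8) and 10.9 CPM in WT (9.90 to 11.9). The intervals of PRDX1MT and WT overlapped, as did those of PRDX1MT and DKO clone 1, and the log2 ratio of PRDX1MT to WT was -0.17 (-0.41 to 0.055). Mutyh encodes the glycosylase that removes adenine paired with oxidised guanine. It stood at 7.64 CPM in PRDX1MT (6.59 to 8.80), 2.24 CPM in DKO clone 1 (1.78 to 2.79), 8.39 CPM in DKO clone 5 (7.34 to 9.54) and 4.79 CPM in WT (4.14 to 5.50). PRDX1MT and DKO clone 5 overlapped above WT, and the log2 ratio of PRDX1MT to WT was 0.67 (0.38 to 0.97), under the rule. Hpdl encodes a mitochondrial enzyme-like protein related to 4-hydroxyphenylpyruvate dioxygenase. It had 94 reads in PRDX1MT, 19 and 45 in DKO clones 1 and 5, and 51 in WT, which is 3.78 CPM in PRDX1MT (3.05 to 4.62), 0.533 CPM in DKO clone 1 (0.321 to 0.832), 1.63 CPM in DKO clone 5 (1.19 to 2.19) and 1.24 CPM in WT (0.923 to 1.63). PRDX1MT was 3.05-fold above WT for Hpdl (2.15 to 4.38; log2 ratio 1.56), the intervals of DKO clone 5 and WT overlapped, and 2.65% of all genes had a ratio as high.

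Per kb of exon, the order of the 7 genes differed between PRDX1MT and WT. In PRDX1MT, Ccdc163 led with 17.8 CPM per kb, ahead of Prdx1 (10.2), Mmachc (7.57), Tesk2 (7.40), Toe1 (3.24), Mutyh (2.92) and Hpdl (2.09). In WT, Prdx1 led with 131 CPM per kb, and Mmachc (4.97), Toe1 (3.65), Tesk2 (3.07), Ccdc163 (2.34), Mutyh (1.83) and Hpdl (0.687) followed. DKO clones 1 and 5 also had Prdx1 first, at 129 and 109 CPM per kb, and Mmachc second, at 2.71 and 6.07 CPM per kb. These values divide by all exon bases, of which 37.9% in Tesk2, 40.7% in Toe1 and 16.1% in Ccdc163 overlap exons of other genes. If reads there went uncounted, the values of these genes are too low. Their places in the order, and that of Mmachc above Toe1, therefore hold for the whole exon length only.

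Ratios within a library do not depend on the scaling between libraries. Ccdc163 reads per kb were 174% of Prdx1 reads per kb in PRDX1MT (158 to 191), 0.855% in DKO clone 1 (0.694 to 1.04), 2.88% in DKO clone 5 (2.51 to 3.30) and 1.79% in WT (1.57 to 2.03). For Mmachc the share of Prdx1 was 74.0% in PRDX1MT (65.5 to 83.4), 2.10% and 5.57% in DKO clones 1 and 5, and 3.79% in WT. For Tesk2 it was 72.2% in PRDX1MT (65.3 to 79.9), 1.94% and 3.44% in DKO clones 1 and 5, and 2.34% in WT. The ratio to Prdx1 in PRDX1MT was thus 97.3, 19.5 and 30.9 times that in WT for Ccdc163, Mmachc and Tesk2, values that combine the 12.8-fold lower Prdx1 level with the higher level of each gene. Ccdc163 over Mmachc per kb was 2.35 in PRDX1MT (2.10 to 2.64), 0.407 and 0.517 in DKO clones 1 and 5, and 0.472 in WT (0.402 to 0.552). Ccdc163 exceeded Mmachc, its head-to-head partner, in PRDX1MT and was below it in the other 3 libraries. For the other head-to-head pair, Mutyh over Toe1 per kb was 0.903 in PRDX1MT (0.742 to 1.10), 0.328 and 0.718 in DKO clones 1 and 5, and 0.502 in WT (0.422 to 0.594). All exon bases were used as length here too. Reads left uncounted in overlaps would make the Tesk2 and Ccdc163 ratios to Prdx1 too low and Mutyh over Toe1 too high. The intervals do not cover this, so the side of equality on which Tesk2 lies in PRDX1MT is not settled. How a ratio compares between libraries does not depend on the length used.

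**Figure D3:**
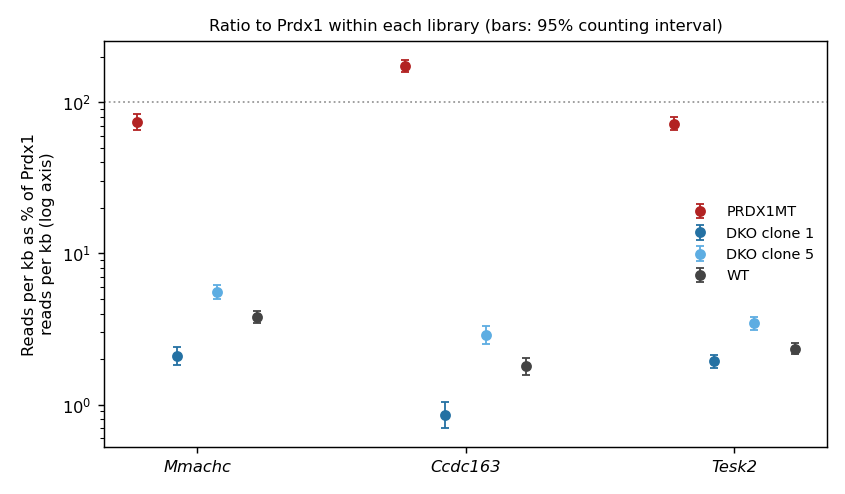
Reads per kb of Mmachc, Ccdc163 and Tesk2 as a percentage of Prdx1 reads per kb in the same library (log axis), with 95% binomial intervals as bars and a dotted line at equality. PRDX1MT lies at 74.0%, 174% and 72.2%, and DKO clones 1 and 5 and WT lie between 0.855% and 5.57%. Lengths are all exon bases, including those of Tesk2 and Ccdc163 that overlap other genes, and the bars do not cover this.

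In PRDX1MT against WT the genes from Mmachc to Hpdl were mostly higher, and the other measured genes within 500 kb were mostly lower. Within 500 kb of Mmachc there were 51 annotated genes, 44 of them outside the 7, and 17 of those 44 had 100 reads in PRDX1MT and WT together. The 6 genes from Mmachc to Hpdl had a median log2 ratio of 0.97 in PRDX1MT against WT, with 5 of 6 positive. The other 17 had a median of -0.62, with 2 positive and 15 negative. Of all genes tested, 47.3% were positive. On the Prdx1 side, 7 of 8 genes besides Prdx1 were negative (median -0.75), and beyond Hpdl 8 of 9 were negative (median -0.62). Within 200 kb of Mmachc, 0 of the 6 genes beyond Hpdl had 100 reads. Where the higher levels end on that side is therefore not known. No test was made of this difference, and the 7 genes were chosen with earlier results of these data known.

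By the size rule 6 of the 17 other genes differed in PRDX1MT against WT, where 14.8% of all genes did. Plk3, a stress-responsive kinase, was higher at a log2 ratio of 1.28. The PI3-kinase subunit gene Pik3r3 (-1.57), Tmem69 (-1.76), Ccdc17 (-1.33), Tctex1d4 (-1.11), and the small nuclear RNA gene Gm25099 (-1.59) were lower. Ccdc17 has 872 of its 2634 exon bases under exons of the other strand, Tmem69 657 of 2069, Tctex1d4 84 of 1111 and Plk3 84 of 2531. In DKO clone 1 against WT, 5 of 17 differed, 1 higher and 4 lower, where 16.0% of all genes did. Plk3 was higher (1.29), and Ccdc17 (-1.22), Tctex1d4 (-1.13) and the kinesin gene Kif2c (-1.46) were among the lower. In DKO clone 5 against WT, 3 of 17 differed, where 14.3% of all genes did, with Kif2c higher (1.03) and Pik3r3 (-1.22) and Gm25099 (-1.16) lower. The next gene beyond Hpdl, the antisense RNA Gm12996 on the plus strand, had 12 reads in PRDX1MT, 0 and 1 in DKO clones 1 and 5, and 0 in WT. The next gene before Prdx1, the small RNA gene Gm25137, had 0 reads in all 4 libraries, which allows up to 0.121 CPM in PRDX1MT, 0.0841 and 0.109 CPM in DKO clones 1 and 5, and 0.0729 CPM in WT.

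**Figure D4:**
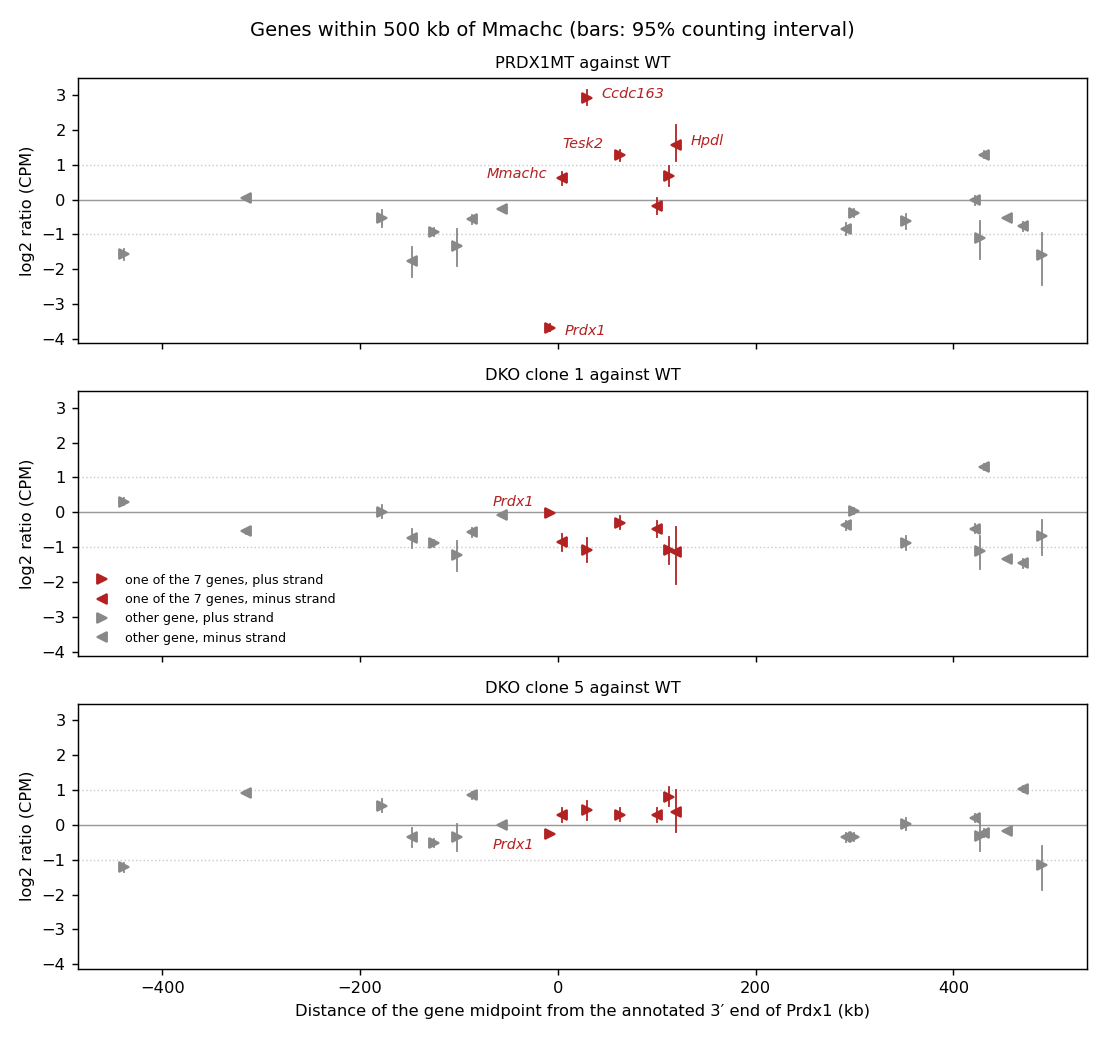
Log2 ratio of genes within 500 kb of Mmachc with at least 100 reads in the libraries compared, and of the 7 genes throughout, against the distance of the gene's midpoint from the annotated 3′ end of Prdx1 in kb, for PRDX1MT, DKO clone 1 and DKO clone 5 each against WT. Dotted lines mark 2-fold, and bars are 95% counting intervals. In PRDX1MT the group from Mmachc to Hpdl lies mostly above 0 (median 0.97), and the other genes lie mostly below it (median -0.62). In DKO clones 1 and 5 the 5 genes of this group with 100 reads have medians of -0.87 and 0.29. The other genes in these clones have medians of -0.58 and -0.23.

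The DKO clones were the only replicated group, and against WT all 7 genes missed the test's threshold. Over both clones Prdx1 averaged 362 ± 42.7 CPM, Mmachc 9.77 ± 5.29, Ccdc163 5.35 ± 3.64, Tesk2 13.3 ± 3.79, Toe1 10.6 ± 3.91, Mutyh 5.32 ± 4.35 and Hpdl 1.08 ± 0.779 (SD, n = 2). The log2 ratios to WT were -0.14 for Prdx1 (SE 0.48), -0.18 for Mmachc (SE 0.63), -0.15 for Ccdc163 (SE 0.68), 0.02 for Tesk2 (SE 0.52), -0.04 for Toe1 (SE 0.59), 0.15 for Mutyh (SE 0.84) and -0.20 for Hpdl (SE 0.89). Each had an adjusted p of 1.0 by edgeR's quasi-likelihood test with Benjamini-Hochberg adjustment over 19446 genes. Of all those genes, 0.468% passed, and of the 7, 0 were under an unadjusted p of 0.05 and 0 passed by DESeq2. The 2 clones were the only replicates behind the SE, and edgeR drew each gene's spread towards that of all genes. WT and PRDX1MT were assumed to vary like the clones. Tesk2 turned to a log2 ratio of -0.10 with total-count scaling.

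Against PRDX1MT, the DKO clones had more Prdx1 and less Ccdc163, and whether either difference passed depended on the test. Prdx1 in DKO clones 1 and 5 was 12.6-fold and 10.7-fold that of PRDX1MT (log2 ratio 3.54 over both, SE 0.59), with adjusted p = 0.0987 by edgeR. Ccdc163 was 16.1-fold and 5.66-fold lower in the clones (log2 ratio -3.07, SE 0.66), with adjusted p = 0.225 by edgeR. With DESeq2 the adjusted p was 3.68e-07 for Prdx1 and 0.0062 for Ccdc163, and with edgeR without a filter on low counts it was 9.86e-06 and 2.88e-05. Over all 7 alternative fits the adjusted p ran from 3.68e-07 to 0.240 for Prdx1 and from 2.88e-05 to 0.498 for Ccdc163. The log2 ratio was -0.79 for Mmachc (SE 0.62) and -1.24 for Tesk2 (SE 0.50), both at adjusted p = 1.0 by edgeR. Thus 0 of the 7 passed by edgeR, where 0.206% of all genes did. The same 2 passed by DESeq2, where 1.17% did, and by edgeR without the filter, where 1.30% did. Before adjustment, 3 of the 7 were under 0.05 by edgeR, namely Prdx1 (unadjusted 0.000412), Ccdc163 (0.00187) and Tesk2 (0.0384), as were 4.69% of all genes. By the size rule 6 of the 7 differed in DKO clone 1 against PRDX1MT, where 15.0% of all genes did, and 3 in DKO clone 5 against PRDX1MT, where 13.8% did. These comparisons share the PRDX1MT library with the one against WT.

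The 2 DKO clones differed from each other across the row. Set against clone 1, clone 5 was higher for 6 of the 7 genes, and lower for Prdx1 alone. Mutyh was 3.74-fold higher in clone 5 (2.89 to 4.89; log2 ratio 1.87), Ccdc163 2.85-fold (2.24 to 3.65; log2 ratio 1.49) and Mmachc 2.24-fold (1.89 to 2.66; log2 ratio 1.16), the 3 that passed the size rule, where 18.4% of all genes did and 7.63% were higher. Hpdl had a log2 ratio of 1.51 on 64 reads, under the read minimum, Toe1 0.77, Tesk2 0.59 and Prdx1 -0.24. The median was 1.16 over the 7 genes and -0.02 over all genes. Of the other genes within 500 kb with 100 reads in both clones together, 13 of 16 were higher in clone 5 (median 0.61), against 48.9% of all genes, so a higher level in clone 5 was not limited to the 7 genes.

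Each clone lay on its own side of WT for the genes from Mmachc to Hpdl. In clone 1 all 7 log2 ratios to WT were negative, with a median of -0.87. Ccdc163 (-1.07) and Mutyh (-1.07) passed the size rule, where 16.0% of all genes did and 7.56% were lower, and Mmachc was at -0.87 (-1.12 to -0.64). In clone 5 the 6 genes from Mmachc to Hpdl were positive and Prdx1 was at -0.27 (-0.30 to -0.23). None of the 7 passed, where 14.3% of all genes did. Mutyh was furthest from WT in clone 5, at a log2 ratio of 0.80 (0.53 to 1.09), and Mmachc was at 0.29. The other genes within 500 kb had medians of -0.58 in clone 1 and -0.23 in clone 5 against WT.

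**Figure D5:**
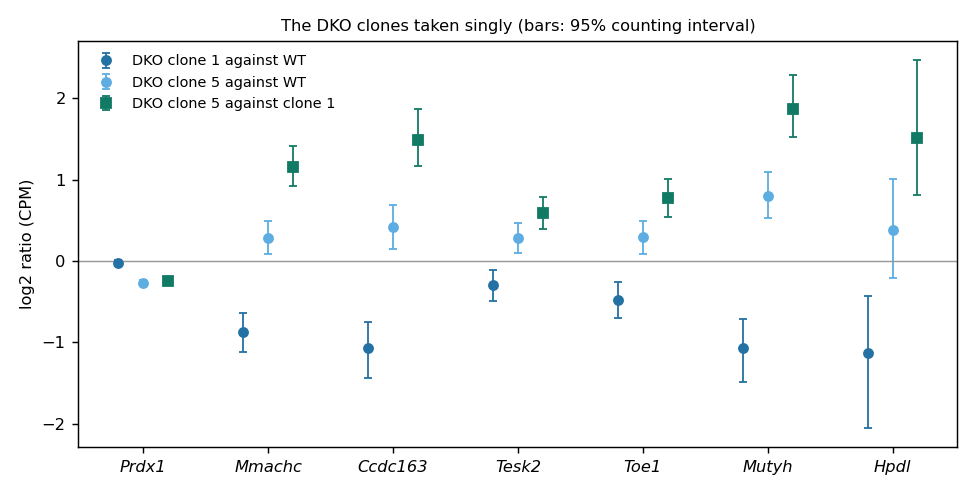
Log2 ratio of each gene for DKO clone 1 against WT, DKO clone 5 against WT, and DKO clone 5 against clone 1, with bars for the 95% counting interval. Mmachc to Hpdl lie below 0 in clone 1 and above 0 in clone 5, and Mutyh shows the largest gap between the clones, a log2 ratio of 1.87.

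The pathways of the edited gene and of its neighbours were read from lists of named genes. Against WT, the size rule held for 14.8% of all genes in PRDX1MT, and for 16.0% and 14.3% in DKO clones 1 and 5, and a list's count near those shares is not a result about the list. Of 15 peroxiredoxin system genes, 2 passed the size rule in PRDX1MT against WT, both lower: Prdx1 itself, and Txnip, an inhibitor of thioredoxin, at 18.4 CPM in PRDX1MT and 73.0 CPM in WT (log2 ratio -1.98). The list's median was -0.28, against -0.04 for all genes. In DKO clone 1 against WT 2 of the 15 were higher, and in DKO clone 5 against WT 1 was lower. The intracellular cobalamin list held the Mmachc pathway and factors known to drive the Mmachc promoter, Zfp143 among these factors, and 16 of its genes were found. Of the 16, 1 passed in PRDX1MT, the promoter factor Zfp143, at 6.11 CPM in PRDX1MT and 14.7 CPM in WT (log2 ratio -1.26, list median -0.01). In DKO clone 1 against WT 0 passed, and in DKO clone 5 against WT 1, lower. Of 11 measured glycosylases and related genes of base excision repair, Ung, which removes uracil, was higher at 7.48 CPM in PRDX1MT and 3.43 CPM in WT (log2 ratio 1.11). Mbd4, which acts on mismatched thymine, was lower at 2.25 CPM in PRDX1MT and 5.44 CPM in WT (log2 ratio -1.25), and the list's median was 0.28. Of the same 11, 2 were lower in DKO clone 1 and 2 were higher in DKO clone 5, each against WT. By edgeR 0 genes of the 3 lists passed in DKO against WT or against PRDX1MT. At an unadjusted p under 0.05 there were 0 and 3 genes, the 3 all from the peroxiredoxin list, and DESeq2 called 0 and 2, Prdx1 and Txnip.

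Likeness was measured as the root mean square difference of log2 CPM, each gene centred on its mean over the 4 libraries, among 11923 protein-coding genes with at least 100 reads. Closest to Prdx1 was Spp1, which encodes the secreted phosphoprotein osteopontin, at 7.68 CPM in PRDX1MT, 112 and 87.9 CPM in DKO clones 1 and 5, and 156 CPM in WT (difference 0.252). Cmtm5 (0.329) and Synpo2 (0.342) came next. Closest to Mmachc were Klrg2 (0.0671), Grin3a (0.0814) and Aspa (0.0839), and among the other 6 genes of the row Mutyh came nearest, at rank 164 (0.262). Closest to Ccdc163 were Cacnb2 (0.354), Acta1 (0.368) and Aldh1a3 (0.392), and Hpdl was at rank 13 (0.571). With 4 libraries such likeness only describes them.

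Near-identical copies of Prdx1 took few reads. The processed pseudogene Gm21399 matched Prdx1 over 597 bases at 98.3% identity and had 4 reads in PRDX1MT, 37 and 28 in DKO clones 1 and 5, and 50 in WT. All copies of Prdx1 held 0.307% to 0.516% of its reads. Protein-coding transcripts of Mutyh and Hpdl matched 0 other genes over 100 bases at 95% identity, and Ccdc163 was matched by Tesk2 through the 405 exon bases they share. Mmachc matched 39 genes over at most 152 bases, 27 of them with at least 10 reads in a library, and how reads in that short match were assigned is not known. Tesk2 matched only Toe1 and Ccdc163, and Toe1 matched only Tesk2, in each case genes with which it overlaps.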

How the data were processed

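Libraries were prepared from total RNA depleted of ribosomal RNA, with a kit that keeps strand, per the labels' protocols. Reads were aligned with STAR 2.6.1d, and mm10 is the build named, per the submitters' processing notes. How reads were counted (program, annotation, strand) is not given in the sources used here. Each deposited file holds raw counts, whole numbers that the authors did not normalize. Symbols came from GENCODE M21, which held 54495 of the 54532 identifiers.

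Analysis was in R 4.3.3 with edgeR 4.0.16 (quasi-likelihood, TMM, filterByExpr, 3 groups in 1 fit, adjusted p threshold 0.05 over 19446 genes, with the DKO clones giving its 1 residual degree of freedom) and DESeq2 1.42.0. Tests were checked on simulated data. Single libraries were compared by size (prior count 2) with binomial intervals, and an edgeR contrast of PRDX1MT with WT in the same fit was added after seeing the data. Depth was 27570136 to 37685798 counts, and 3 counts, taken as the limit of a count of 0, were 0.0729 to 0.121 CPM. PCR reads are not independent molecules, so intervals cover counting error only. Copies were sought with blastn 2.17.0.

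Named genes were the 7 members, genes within 500 kb of Mmachc past the size rule in a comparison with WT, the next gene on each side, list members past it in PRDX1MT against WT, copies with at least 10 reads and the 3 nearest genes by likeness. The 39 genes matching Mmachc are given as counts. One gene that the rule names is not reported here. The members and lists were chosen with earlier results of these data known.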

Additional observations from a re-analysis of the deposited data

How the results depend on the processing

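No paired analysis was possible because WT, PRDX1MT and DKO share no replicate number that pairs libraries. In DKO against WT 91 genes passed by edgeR, against 535 without a filter on low counts, 0 with at least 1 CPM in 2 libraries (490 at an unadjusted p under 0.05) and 262 by DESeq2. In DKO against PRDX1MT 40 passed, against 13 with median-of-ratios scaling, 7 with total counts, 404 without a filter, 0 with 1 CPM in 2 libraries (530 at an unadjusted p under 0.05), 11 with only these groups fitted, 14 with small and mitochondrial RNA and Gm26917 removed and 215 by DESeq2. By the size rule 1881 genes differed in PRDX1MT against WT (3613 at 20 reads, 913 at 500 reads, 4350 at 1.5-fold, and 0 by the added edgeR contrast, with 801 at an unadjusted p under 0.05), 2065 in DKO clone 1 against WT (3822, 1107 and 4419 at the same settings) and 1802 in DKO clone 5 against WT (3181, 988 and 4178). Total-count scaling turned 920 higher and 961 lower genes in PRDX1MT against WT into 544 and 1734, 1087 and 978 in clone 1 into 927 and 1157, and 719 and 1083 in clone 5 into 547 and 1356.

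Of the 7 genes, those past the size rule in PRDX1MT against WT numbered 4, with 3 at 500 reads (without Hpdl), 3 with total counts (without Tesk2), 6 at 1.5-fold (Mmachc and Mutyh added) and 0 by the added edgeR contrast. In clone 1 against WT they numbered 2, and 0 at 500 reads, with Mmachc (-0.87) added at 1.5-fold and Hpdl (-1.13) added at 20 reads. In clone 5 against WT they numbered 0, and 1 (Mutyh) at 1.5-fold. In PRDX1MT against WT the log2 ratio under other scalings and prior counts ran from -3.95 to -3.67 for Prdx1, 0.33 to 0.61 for Mmachc, 2.64 to 2.92 for Ccdc163 and 0.99 to 1.27 for Tesk2. Leaving out a clone gives values with no test, since no residual degree of freedom is left: Mmachc in DKO against WT was 0.29 without clone 1 and -0.87 without clone 5, and Ccdc163 0.42 and -1.07. Of the other genes near Mmachc with 100 reads, 6 of 17 differed in PRDX1MT against WT within 500 kb. Within 200 kb 2 of 6 differed, and within 1000 kb 7 of 32, where 14.8% of all genes did. The cause of these changes was not tested. The depth of 19 to 94 reads a library limits Hpdl most.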
